A study of Homo sapiens with 24 samples.

Results

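The interferon response genes are 49 human genes known to be induced by interferons or by the sensing of viral RNA. They were taken by name from a fixed list, and all 49 were found among the 40900 distinct gene symbols of the count tables. The list holds 4 transcription factors, 13 RNA sensors and RNA-binding proteins, 7 membrane and secreted effectors, 13 intracellular antiviral effectors and 12 genes of the ISG15, ubiquitin and ADP-ribose enzymes. The organoid table lists all 49 of them, and 47 passed the filter on low counts there (OASL and SAMD9L did not). The table of the neural progenitor cells (NPCs) lists 46, and all 46 passed; IFITM2, ISG20 and IFI16 were not analysed here in the NPCs.

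H9, an established line of human embryonic stem cells, was infected with a lentivirus carrying a short hairpin RNA and selected with puromycin, and the selected cells were turned into NPCs or into cerebral organoids, which were sampled at day 30. The hairpins were a scrambled control (NC) and sh1 and sh4, which target KDM2A, a demethylase of histone H3 lysine residues. Each NPC group had 5 libraries of bulk polyadenylated RNA and each organoid group had 3. The control cells also carried an integrated lentivirus, so no group was free of viral vector. Nothing in the labels ties each library to a culture of its own, and p-values here therefore describe the scatter among libraries, which may be technical.

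Interferons bind receptors whose JAK kinases phosphorylate STAT proteins. A complex that contains STAT2 and IRF9 then binds the interferon-stimulated response element (ISRE) in the promoters of many genes, while the gamma-activated site (GAS) serves the response to interferon gamma. RIGI and IFIH1 detect double-stranded RNA in the cytoplasm and, through MAVS and IRF3 or IRF7, switch on interferon beta, so that sensors are both the triggers and the products of the response.

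Many promoters of the list carry these binding letters. Stretches are shown for some of the genes named below, chosen among those with an ISRE match. RefSeq promoter windows (GRCh38.p14), from 250 bases before to 50 bases after a start site, were found for 40 of the 49 genes; IRF7, OAS2, OASL, IFIT2, IFITM2, MX2, USP18, UBA7 and TRIM22 were not matched. The ISRE was searched as GAAA, any 2 bases and GAAA again, on both strands, overlapping matches included. It occurred in the windows of 26 of the 40 genes (65.0%), against 4.38% of all 27305 genes with a window of that length. All 6 membrane and secreted effectors with a window held it, as did 7 of 10 RNA sensors, 7 of 9 ISG15, ubiquitin and ADP-ribose enzymes, 6 of 12 intracellular effectors and 0 of 3 transcription factors. The GAS, searched as TTCNNNGAA, was found in 27.5% of the 40 genes and in 9.38% of all genes. No ISRE match was found for RIGI, HERC6 and IRF1, which fell with both hairpins in the NPCs. The same was true of XAF1, OAS1, SAMD9L, CMPK2 and SP110, which fell there with sh1 only. BST2, DDX60, IFITM3 and IFIT5 passed with neither hairpin in the NPCs and held matches. A link between matches and changes was not tested. A match describes the letters in the window and does not show that a factor was bound there. Elements with another spacing, a changed base or a place outside the window were not searched. A missing match therefore does not show that a gene lacks the element.

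The stretches are written 5′ to 3′ on the strand of the gene, with each ISRE match in capitals; TTTC in capitals is the same element read on the other strand, and neighbouring matches can overlap. IFIH1, OAS3 and IFI44L each hold a further match in the window that is not shown. IFIH1 (chr2:162318808-162318863, minus strand), IFIT1 (chr10:89392487-89392549, plus), IFIT3 (chr10:89327821-89327904, plus), RSAD2 (chr2:6877612-6877661, plus) and ISG15 (chr1:1013364-1013419, plus) were lower with both hairpins in the NPCs. OAS3 (chr12:112938311-112938360, plus), IFI27 (chr14:94110608-94110670, plus) and IFI44L (chr1:78620264-78620313, plus) were lower there with sh1 and lower with sh1 than with sh4. IFI6 (chr1:27672256-27672368, minus) and SAMD9 (chr7:93118086-93118135, minus) were higher with both labels in the organoids. All lie upstream of a RefSeq start of their gene. RSAD2 has another RefSeq start further upstream, whose window held no match and lies before the stretch shown. In GENCODE 29 no annotated exon lay under the stretches of RSAD2, ISG15, IFI27, IFI44L, IFI6 and SAMD9, while longer transcripts of IFIT1, IFIT3 and OAS3 reach 4, 11 and 9 bases into theirs, and 24 bases of the IFIH1 stretch are exon of the neighbouring gene GCA.
IFIH1: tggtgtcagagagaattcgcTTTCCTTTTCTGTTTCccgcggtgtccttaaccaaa
IFIT1: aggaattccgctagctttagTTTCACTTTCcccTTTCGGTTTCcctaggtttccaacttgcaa
IFIT3: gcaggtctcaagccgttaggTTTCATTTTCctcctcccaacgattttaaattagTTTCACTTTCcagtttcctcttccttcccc
RSAD2: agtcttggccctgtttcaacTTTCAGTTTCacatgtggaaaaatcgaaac
ISG15: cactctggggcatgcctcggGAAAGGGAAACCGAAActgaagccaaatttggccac
OAS3: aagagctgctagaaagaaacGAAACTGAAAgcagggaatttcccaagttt
IFI27: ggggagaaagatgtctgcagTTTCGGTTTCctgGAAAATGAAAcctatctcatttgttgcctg
IFI44L: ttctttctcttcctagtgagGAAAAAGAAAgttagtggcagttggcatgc
IFI6: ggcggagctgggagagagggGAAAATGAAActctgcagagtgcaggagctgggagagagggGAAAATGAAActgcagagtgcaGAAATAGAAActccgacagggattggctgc
SAMD9: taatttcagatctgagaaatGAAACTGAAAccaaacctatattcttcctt

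Levels are CPM, counts per 1e6 counts of the library total scaled by TMM, and fold changes are log2 values with their standard error (SE) from edgeR's quasi-likelihood fit. A gene is said to have risen or fallen where its Benjamini-Hochberg adjusted p was under 0.05 and its log2 fold change at least 1 in size. Library totals, in units of 1e6 counts, ranged from 12.7 to 20.2 for NPCs and from 15.9 to 18.9 for organoids. KDM2A averaged 186 CPM with NC, 92.1 with sh1 and 95.1 with sh4 in the NPCs, log2 fold changes of -1.02 (SE 0.05) and -0.97 (SE 0.05), of which the second is just short of the size threshold. In the organoids it averaged 100.5, 110.4 and 101 CPM, with log2 fold changes of 0.14 (adjusted p = 0.127) and 0.01 (adjusted p = 0.926); by library size alone the second was -0.27 (adjusted p = 0.00871). The organoid groups are therefore called by their labels only. The NPC table holds 10221 genes, of which 9860 passed the filter. Of these, 9792 had an adjusted p under 0.05 for sh1 against NC and 8679 for sh4 against NC. Its percentages are therefore shares of the genes listed and not of all genes. How the listed genes were chosen is not known. In the NC libraries of the NPCs the summed CPM was 2119 to 2283 over neural progenitor markers, 1068 to 1165 over pluripotency markers and 6394 to 7116 over mesenchyme markers.

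In the NPCs, 12 of the 46 interferon response genes fell with both hairpins (8.48% of all genes tested), 15 with sh1 only, 1 with sh4 only, and 17 passed with neither. With sh1, 27 of the 46 fell against NC, beside 12.1% of all genes tested, and their median log2 fold change was -1.08 beside 0.11 for all genes. With sh4, 13 of 46 fell (11.6% of all genes) and 1 rose (6.55% of all genes), with a median of -0.43 beside 0.03. No member rose with sh1 by edgeR or by DESeq2 (6.31% of all genes); at an unadjusted p under 0.05, 4 members were higher. None rose with both hairpins (4.62% of all genes; 4 were higher with both at an unadjusted p under 0.05). In each of the 12 no NC library overlapped a hairpin library: IRF1, IRF7, RIGI, IFIH1, OASL, IFIT1, IFIT2, IFIT3, RSAD2, ISG15, HERC6 and PARP14. These hairpin groups share their NC libraries. Nearly all listed genes had a small adjusted p with sh1, so genes that changed with sh4 alone may be missing from the table. The counts by hairpin, and those of differences between the hairpins, may therefore lean towards sh1.

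**Figure D1:**
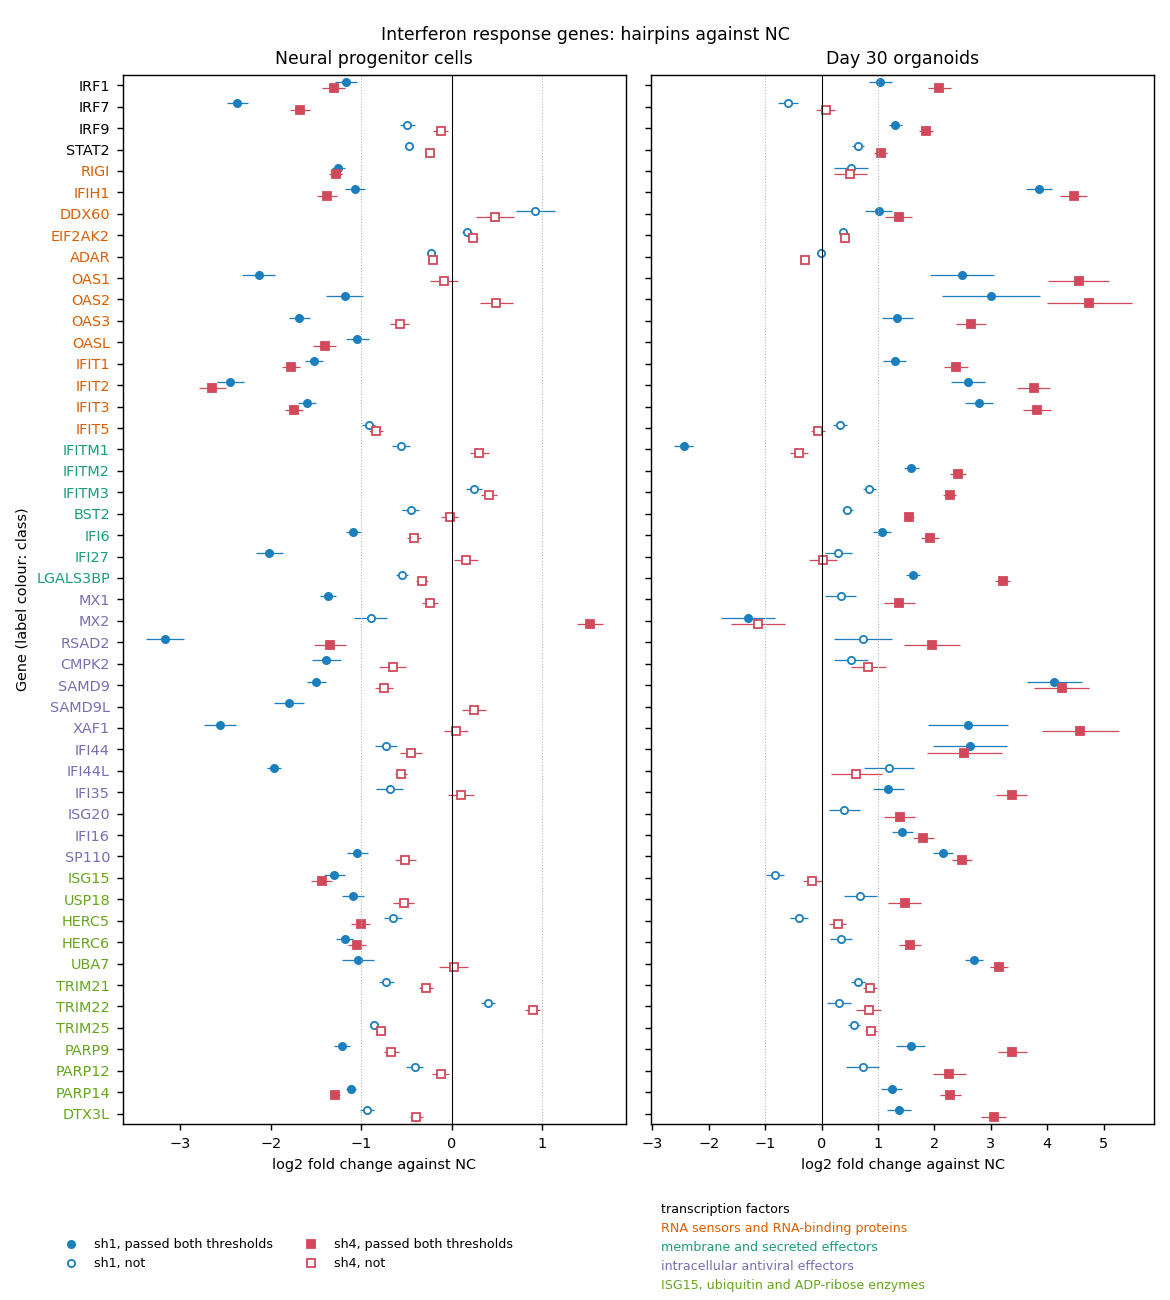
Log2 fold change of each of the interferon response genes for sh1 (circles) and sh4 (squares) against NC in the NPCs (left) and the day 30 organoids (right), with bars of 1 SE; filled symbols passed both thresholds and dotted lines mark a log2 fold change of 1 in size. Most NPC values lie left of 0 and most organoid values right of it; genes without a symbol were not tested in that system.

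Among the transcription factors, IRF7, which drives interferon production once sensors have fired, fell furthest. Its level was 15.2, 17.7, 14.4, 14.5 and 13.1 CPM in the NC libraries, 2.28, 2.85, 2.57, 2.87 and 3.8 with sh1, and 4.29, 4.86, 4.65, 5.07 and 4.59 with sh4. Every sh1 library lay below every sh4 library and every sh4 library below every NC library, with log2 fold changes of -2.37 (SE 0.12, adjusted p = 1.71e-12) and -1.67 (SE 0.11, adjusted p = 6.93e-11). IRF1, a factor that activates promoters of both the ISRE and the gamma response, was 12.7, 12.5, 13.3, 12.4 and 13.7 CPM with NC, 5.1, 5.27, 5.2, 6.09 and 6.88 with sh1 and 5.5, 5.02, 3.67, 5.12 and 6.8 with sh4. The hairpin groups overlapped each other and neither overlapped NC, at -1.17 (SE 0.12) and -1.31 (SE 0.12). The DNA-binding subunit IRF9 had 26.2, 25.8, 24, 26.2 and 25.1 CPM with NC, 17.8, 19.0, 17.9, 17.2 and 18.8 with sh1 and 22.2, 19.3, 21.0, 27.8 and 26.7 with sh4, so that only sh1 stood clear of NC. Its partner STAT2 had 143, 144, 137, 148 and 140 CPM with NC, 105, 99.9, 107, 102 and 98.5 with sh1, and 121 ± 5.72 (SD, n = 5) with sh4. Neither reached the size threshold: IRF9 was at -0.49 (SE 0.09) and -0.12 (SE 0.09), and STAT2 at -0.48 (SE 0.04) and -0.24 (SE 0.04).

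The sensor genes RIGI and IFIH1 fell with both hairpins. RIGI, which recognises RNA with a 5′ triphosphate, had 114, 117, 124, 119 and 110 CPM with NC, 44.7, 50.2, 43.9, 50.2 and 55.6 with sh1 and 41.9, 53.1, 50.6, 43.6 and 51.4 with sh4. The hairpin groups covered the same range, and the log2 fold changes were -1.25 (SE 0.07, adjusted p = 1.23e-11) and -1.28 (SE 0.07, adjusted p = 6.76e-12). IFIH1, or MDA5, which recognises long double-stranded RNA, had 111, 105, 126, 110 and 101 CPM with NC, 43.1, 53.8, 43.7, 53.8 and 67.4 with sh1 and 34, 46.6, 40, 41.3 and 50.5 with sh4, at -1.07 (SE 0.11) and -1.38 (SE 0.11).

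IFIT1 binds viral RNA that lacks the host's cap methylation, and 3 of the 4 IFIT genes fell with both hairpins. IFIT2 had the highest CPM of the list in the NC libraries, at 1125, 889, 1216, 962 and 601; the sh1 libraries had 155, 189, 148, 174 and 213 CPM, and the sh4 libraries had 129, 168, 146, 141 and 180. These were log2 fold changes of -2.45 (SE 0.15) and -2.65 (SE 0.15), and the lowest NC library was above every hairpin library. IFIT1 had 752, 686, 821, 720 and 544 CPM with NC, 213, 264, 224, 237 and 288 with sh1 and 177, 224, 213, 194 and 219 with sh4, at -1.52 (SE 0.10) and -1.78 (SE 0.10). IFIT3, which binds and stabilises IFIT1, had 275, 256, 309, 275 and 213 CPM with NC, 80.7, 86.2, 75.7, 85.6 and 108 with sh1 and 68.2, 85.6, 80.2, 72.4 and 90.1 with sh4, at -1.60 (SE 0.10) and -1.74 (SE 0.10). In all 3 genes NC library 5 was the lowest of its group. IFIT5 was at -0.92 and -0.83, short of the size threshold. Per kilobase of GENCODE exon, IFITM3, ISG15 and IFIT2 were the highest of the list in the NC libraries (253, 237 and 234 CPM per kilobase), and MX2 was the lowest (0.144).

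The oligoadenylate synthetases did not follow 1 pattern. OASL, which lacks the enzyme activity and binds RIGI, fell with both: 119, 141, 131, 147 and 135 CPM with NC, 56.2, 59.4, 50.8, 69.2 and 90.2 with sh1, and 39.1, 57.9, 50.4, 45.7 and 60.9 with sh4, at -1.04 (SE 0.13) and -1.41 (SE 0.13). Without sh1 library 1 or 3 its sh1 value was -0.99 or -0.96. The active enzymes OAS1, OAS2 and OAS3, which make the second messenger of RNase L, fell with sh1 (-2.13, -1.18 and -1.68) and not with sh4 (-0.08, 0.49 and -0.58). ADAR, which edits double-stranded RNA, was at -0.23 and -0.20, the kinase EIF2AK2 (PKR) at 0.17 and 0.24, and the helicase DDX60 at 0.93 and 0.48.

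In the ISG15, ubiquitin and ADP-ribose class, ISG15, the ubiquitin-like modifier itself, had 240, 209, 267, 238 and 161 CPM with NC, 86.6, 80.6, 82, 92.7 and 112 with sh1 and 71.9, 83.4, 71.9, 83 and 101 with sh4. The log2 fold changes were -1.30 (SE 0.12) and -1.44 (SE 0.12). HERC6, a relative of the human ISG15 ligase HERC5, had 18.6, 17.3, 18.5, 15.8 and 14.7 CPM with NC, 7.65, 7.57, 7.04, 6.81 and 8.22 with sh1 and 7.37, 8.49, 6.98, 8.82 and 9.34 with sh4, at -1.18 (SE 0.10) and -1.05 (SE 0.10); without sh4 library 3 the second was -0.99. PARP14, a mono-ADP-ribosyltransferase, had the smallest p-values of the 12: 150, 146, 150, 151 and 139 CPM with NC, 66.2, 68.3, 66.9, 71.4 and 67 with sh1 and 61.4, 59.8, 51.9, 62.5 and 66 with sh4. These are -1.11 (SE 0.05, adjusted p = 1.06e-12) and -1.29 (SE 0.05, adjusted p = 9.39e-14). HERC5 fell with sh4 (-1.01) and was at -0.65 with sh1. UBA7, which activates ISG15, USP18, which removes it, and PARP9 fell with sh1 (-1.04, -1.09 and -1.21) and did not pass with sh4 (0.02, -0.53 and -0.67). TRIM22 stood at 0.40 and 0.90, above NC with both hairpins and short of the size threshold.

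Of the intracellular effectors, RSAD2 (viperin), a radical enzyme that makes a chain-terminating nucleotide, fell furthest. It had 11.8, 13.6, 12.6, 12.5 and 12.5 CPM with NC, 0.805, 1.48, 0.839, 1.43 and 2.26 with sh1 and 3.24, 5.49, 3.98, 5.28 and 6.86 with sh4, at -3.17 (SE 0.21, adjusted p = 9.06e-11) and -1.34 (SE 0.17, adjusted p = 8.26e-07). The hairpin groups did not overlap each other. CMPK2, which lies beside RSAD2 in the genome, was at -1.38 and -0.65, and SAMD9 at -1.50 and -0.75, so that both passed with sh1 and not with sh4. Among membrane and secreted effectors, IFI6 and IFI27, which sit in internal membranes, fell with sh1 (-1.09 and -2.02), while IFITM1, IFITM3, BST2 and LGALS3BP did not reach the size threshold with either hairpin.

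**Figure D2:**
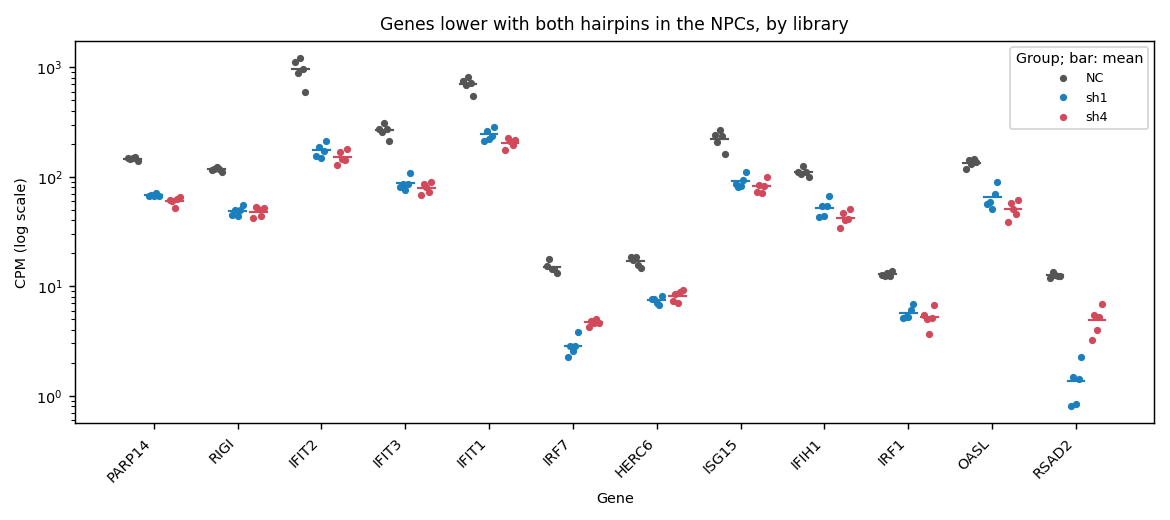
CPM on a log scale in each NPC library for the 12 genes that fell with both hairpins; points are libraries (5 per group) and bars are group means. In each gene the NC points lie above all hairpin points, and for RSAD2 and IRF7 the sh1 points also lie below the sh4 points.

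The hairpins differed from each other in 11 of the 46 genes, each lower with sh1 than with sh4 (2.42% of all genes tested). By edgeR and by DESeq2 none was higher with sh1 (2.18% of all genes); at an unadjusted p under 0.05, 6 were. IFI44L had 51.1, 53.9, 50.2, 51.9 and 59.9 CPM with NC, 12.5, 15.3, 13.4, 13.9 and 13.2 with sh1 and 36.3, 36.5, 32.3, 35.7 and 40.8 with sh4, a difference of -1.41 (SE 0.07, adjusted p = 1.78e-11). XAF1, a pro-apoptotic protein, had 4.75, 5.41, 5.24, 6.19 and 7.3 CPM with NC, 0.604, 1.21, 1.17, 1.02 and 0.822 with sh1 and 5.17, 6.42, 5.9, 5.54 and 6.86 with sh4, a difference of -2.61 (SE 0.17). In XAF1 the sh4 libraries lay within the range of NC. For the GTPase MX2 the hairpins moved apart: 1.88, 2.06, 1.82, 1.27 and 2.35 CPM with NC, 0.805, 0.988, 0.839, 1.18 and 1.18 with sh1 and 4.73, 5.95, 5.38, 5.17 and 5.99 with sh4. MX2 rose with sh4 (1.53, SE 0.14), was at -0.90 with sh1, and differed between them by -2.43 (SE 0.16). IFI27, SAMD9L and MX1 differed by -2.18, -2.05 and -1.13. The 5 others were OAS1, OAS2, OAS3, RSAD2 and UBA7, which are named outside the rule because the group is small. In KDM2A itself the hairpins differed by -0.05 (SE 0.06, adjusted p = 0.579).

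**Figure D3:**
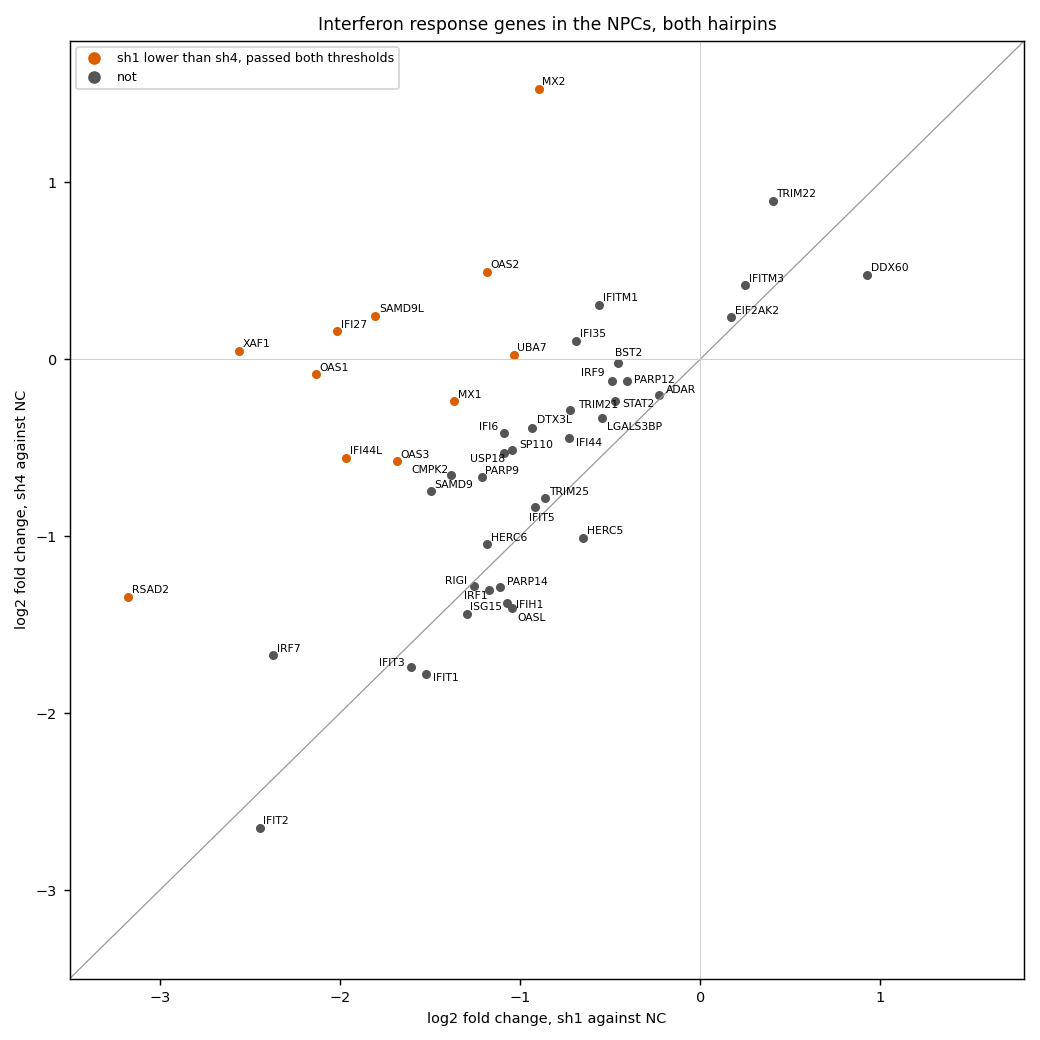
Log2 fold change against NC in the NPCs with sh1 (x axis) and sh4 (y axis), 1 point per gene of the 46; the line marks equal change and orange points were lower with sh1 than with sh4 past both thresholds. The 11 orange points, MX2, OAS2, SAMD9L, IFI27, XAF1, OAS1, UBA7, MX1, IFI44L, OAS3 and RSAD2, lie above the line; IFIT1, IFIT2, IFIT3, RIGI and ISG15 lie close to it.

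Upstream of these genes, the interferon genes listed in the NPC table also fell. IFNB1, which encodes interferon beta, had 8.14, 9.32, 12.2, 9.94 and 8.35 CPM with NC, 1.48, 1.43, 1.01, 1.28 and 2.11 with sh1 and 1.32, 1.66, 1.4, 1.32 and 1.4 with sh4, at -2.70 (SE 0.16) and -2.74 (SE 0.16). IFNL1, a lambda interferon, averaged 4.37 ± 1.27, 0.587 ± 0.196 and 0.477 ± 0.116 CPM (SD, n = 5), at -2.84 and -3.17. The remaining interferons of the list were not analysed here in the NPCs. Of 4 receptor genes, IFNGR1, a chain of the gamma receptor, fell (-1.20 and -1.11), and the kinases JAK1 and TYK2 were short of the size threshold (-0.27 and -0.36, and -0.64 and -0.68). Of 9 sensing adaptors and kinases, TLR3, an endosomal RNA sensor, and CGAS, the sensor of cytoplasmic DNA, fell with both hairpins (-2.13 and -1.83, and -1.30 and -2.08). Of 7 gamma targets and chemokines, CXCL10, CXCL11, GBP2 and GBP4 fell with both; CXCL10, a chemokine for T cells, was at 15.7 ± 1.15, 4.08 ± 0.985 and 3.72 ± 1.08 CPM (SD, n = 5). Without sh1 library 3 GBP4 was at -0.88 with sh1, and without sh4 library 3 GBP2 was at -0.94 with sh4. IRF8 fell by 1.72 with sh1 and by 4.43 with sh4, and SOCS3, an inhibitor of JAK signalling, rose (1.37 and 1.41).

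Markers of other cell types moved in the same NPC libraries. The summed CPM of the 8 pluripotency markers was 1068 to 1165 with NC, 1772 to 1915 with sh1 and 1633 to 1768 with sh4; 4 of the 8 rose with both hairpins and POU5F1 fell (-1.83 and -1.39). Over the 6 endothelial markers listed the sums were 58.2 to 68.9, 132 to 153 and 104 to 158 CPM, but single markers went both ways: KDR rose with both hairpins and TEK with sh1, while CDH5 and VWF fell with both and CLDN5 with sh1. Over the 7 mesenchyme markers the sums were 6394 to 7116, 4857 to 5909 and 5728 to 6563, although 2 of the 7 rose with sh1 and 6 with sh4 and no marker passed as lower (median log2 fold changes 0.83 and 1.64). Neural progenitor markers summed to 1792 to 2063 with sh1 and 2632 to 3173 with sh4, beside 2119 to 2283 with NC. Of the 5 tested, FABP7, PROM1 and SOX1 rose with both hairpins and PAX6 fell with sh4. Neuron markers summed to 2058 to 2630, 2145 to 2445 and 2518 to 2649, and ELAVL3, NEUROD1 and TUBB3 fell with sh1. Of the macrophage, microglia and blood list the NPC table holds ITGAM alone, at 0.22 CPM or less with NC and at 2.11 CPM or less elsewhere. Their part in the result was not tested. In these bulk samples fewer cells of a type and less RNA per cell cannot be told apart.

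In the organoids most of the genes that passed were higher than NC. In the libraries labelled sh1, 23 of 47 genes rose against NC (12.1% of all 19704 genes tested) and 2 fell (7.92%), with a median log2 fold change of 1.01 beside 0.02 for all genes. In those labelled sh4, 32 of 47 rose (20% of all genes), with a median of 1.85 beside -0.01. None fell with sh4 by edgeR or by DESeq2 (15.5% of all genes); at an unadjusted p under 0.05, 3 were lower. The 23 genes that rose with sh1 all rose with sh4 too (10.2% of all genes rose with both labels), and none fell with both (6.18% of all genes; 2 were lower with both at an unadjusted p under 0.05, and 1 fell with both by library size alone or without NC library 2). The 23 were 2 transcription factors, 8 RNA sensors, 3 membrane and secreted effectors, 6 intracellular effectors and 4 of the ISG15 and ADP-ribose class. BST2, HERC6, IFITM3, ISG20, MX1, PARP12, RSAD2, STAT2 and USP18 rose with sh4 and did not pass with sh1. Again the labels share their NC libraries, and without NC library 1 the count for both was 19.

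IRF9 and IRF1 rose with both labels. IRF9 had 10.9, 12.1 and 11.3 CPM with NC, 27.4, 27.6 and 29.8 with sh1 and 45.7, 34.1 and 43.8 with sh4, 3 groups without overlap, at 1.31 (SE 0.12, adjusted p = 2.90e-05) and 1.85 (SE 0.12, adjusted p = 1.34e-06). IRF1 had 3.75, 5.39 and 4.4 CPM with NC, 9.38, 7.91 and 10.6 with sh1 and 23.8, 16.1 and 17.7 with sh4, at 1.04 (SE 0.20) and 2.09 (SE 0.20). The sh1 value was 0.92 without NC library 1 or sh1 library 3, and 0.99 by library size alone. STAT2 had 52.2, 49.7 and 43.1 CPM with NC, 77.7, 80.3 and 69.2 with sh1 and 116, 91.8 and 92.2 with sh4. It rose with sh4 (1.05, SE 0.11) and stood at 0.65 with sh1; the sh4 value was 0.97 without NC library 3, 0.93 without sh4 library 1 and 0.77 by library size alone. IRF7 was the exception of the class, at 8.06, 7.36 and 8.68 CPM with NC, 4.83, 6.32 and 4.82 with sh1 and 10, 8 and 7.31 with sh4 (-0.59, SE 0.18, and 0.07, SE 0.18). On the GENCODE models 48.4% of IRF9's exon bases and 28.0% of IRF1's overlap another gene, and reads there could be split.

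The sensor IFIH1 was near the floor in the controls: 0.607, 1.12 and 1.17 CPM with NC (11 to 21 counts), 11.6, 15.2 and 15.5 with sh1 and 20.8, 19.5 and 24.2 with sh4. The 3 groups did not overlap, and the log2 fold changes were 3.86 (SE 0.23, adjusted p = 3.44e-06) and 4.47 (SE 0.23, adjusted p = 5.54e-07). IFIT3 had 1.77, 1.01 and 1.17 CPM with NC, 9.54, 7.86 and 10.1 with sh1 and 22.8, 14.9 and 18.1 with sh4, at 2.79 (SE 0.25) and 3.81 (SE 0.25). IFIT2 had 0.552, 0.64 and 0.821 CPM with NC, 3.51, 3.9 and 4.82 with sh1 and 11.9, 6.76 and 8.81 with sh4, at 2.59 (SE 0.30) and 3.76 (SE 0.29). Of the other sensors, IFIT1, DDX60, OAS1, OAS2 and OAS3 rose with both labels. OAS1 had 4 to 7 counts in the NC libraries, and OAS2 had 0 to 1 there, 4 to 9 with sh1 and 12 to 30 with sh4, so no fold is given for it. OAS2 passed the filter through its sh4 libraries. With NC and sh1 fitted alone, 45 genes were tested and 22 rose. OAS1, SAMD9 and IFI44 had counts under 10 in the NC libraries and passed the filter through libraries labelled sh1 or sh4. XAF1 had such counts in part of the NC libraries and needed the labelled libraries to pass. Such genes could be called higher but hardly lower, and they are counted among those that rose with both labels. RIGI, which fell with both hairpins in the NPCs, was at 0.53 (SE 0.30) and 0.51 (SE 0.30), and IFIT5, ADAR and EIF2AK2 ranged from -0.29 to 0.42.

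Among membrane and secreted effectors, LGALS3BP, a secreted glycoprotein that binds galectins, separated all 3 groups. It had 66.7, 79.3 and 73 CPM with NC, 233, 187 and 256 with sh1 and 736, 605 and 692 with sh4, at 1.63 (SE 0.13) and 3.21 (SE 0.13). IFITM2, which blocks the entry of enveloped viruses at endosomes, had 22.4, 27.5 and 35.7 CPM with NC, 85.2, 88.4 and 84.3 with sh1 and 159, 143 and 157 with sh4, at 1.59 (SE 0.14) and 2.42 (SE 0.14). Its relative IFITM1, which acts at the cell surface, went the other way, with 283, 224 and 255 CPM with NC, 47.5, 35.8 and 56.3 with sh1 and 198, 167 and 212 with sh4. IFITM1 fell with sh1 (-2.45, SE 0.17) and was at -0.40 (SE 0.16) with sh4. The IFITM genes are near-identical neighbours on chromosome 11, where 32.5% of IFITM1's exon bases overlap IFITM2, so reads could be shared between them. IFI6 had 12.6, 11.3 and 10.8 CPM with NC, 28.4, 21.3 and 23.3 with sh1 and 48.8, 33.8 and 49.3 with sh4, at 1.07 (SE 0.17) and 1.92 (SE 0.17); without sh1 library 1 the first was 0.95. IFI27 did not pass with either label (0.29 and 0.02).

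Of the intracellular effectors, SAMD9, which stops protein synthesis in infected cells, had 0.166, 0.0533 and 0.235 CPM with NC (1 to 4 counts), 3.13, 2.14 and 2.9 with sh1 and 3.9, 1.82 and 3.24 with sh4. It rose by log2 fold changes of 4.13 (SE 0.48) and 4.26 (SE 0.48), with no order between the labels. SP110, a nuclear body protein, had 1.66, 1.87 and 1.7 CPM with NC, 7.18, 7.42 and 8.77 with sh1 and 11.2, 9.24 and 8.99 with sh4, at 2.16 (SE 0.17) and 2.49 (SE 0.17). IFI16, a nuclear DNA sensor, had 13.4, 12.9 and 9.91 CPM with NC, 32.6, 36.1 and 29 with sh1 and 53.2, 40.5 and 33.1 with sh4, at 1.43 (SE 0.18) and 1.8 (SE 0.18). For SP110 and IFI16, as for SAMD9, the labels lay close together and both clear of NC. XAF1, IFI35 and IFI44 also rose with both, XAF1 from 0 to 13 counts in the NC libraries. MX2 fell with sh1 (-1.31, SE 0.48, adjusted p = 0.0474), with 3.26, 1.01 and 1.47 CPM in the NC libraries. The count of genes lower with sh1 was 1 with DESeq2, without the filter on low counts, and without NC library 1 or 3, any of the sh1 libraries, or sh4 library 2 or 3. MX2 and IFITM1 are named here because they were the 2 genes that fell.

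In the last class, UBA7, the enzyme that activates ISG15, had 3.81, 4.05 and 3.23 CPM with NC, 27.3, 20.9 and 24.1 with sh1 and 36, 27.4 and 35 with sh4, at 2.70 (SE 0.16, adjusted p = 3.17e-06) and 3.15 (SE 0.16, adjusted p = 5.06e-07). PARP14 had 11.5, 15 and 10.7 CPM with NC, 28.7, 25.9 and 33.4 with sh1 and 74.5, 48.5 and 57.9 with sh4, at 1.24 (SE 0.18) and 2.28 (SE 0.19). DTX3L and PARP9, partners in 1 ubiquitin ligase complex, rose together (1.37 and 1.58 with sh1, 3.05 and 3.38 with sh4). The modifier ISG15 itself did not rise: it had 25.1, 26.6 and 27.9 CPM with NC, 16.1, 14.2 and 14.6 with sh1 and 30.5, 18.1 and 22.5 with sh4. All sh1 libraries of ISG15 lay below NC (-0.83, SE 0.17, short of the size threshold), and the sh4 libraries spanned the NC range (-0.16, SE 0.16).

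**Figure D4:**
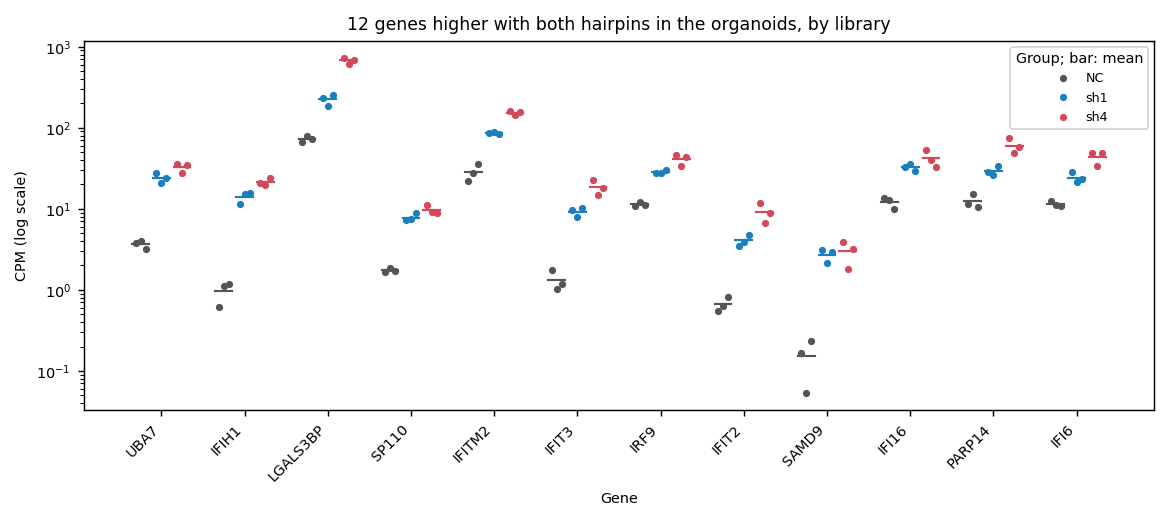
CPM on a log scale in each organoid library for 12 genes that rose with both labels; points are libraries (3 per group) and bars are group means. The NC points of each gene lie below all points labelled sh1 and sh4, from 0.0533 CPM for SAMD9 to 79.3 CPM for LGALS3BP.

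Between the labels, 19 of 47 genes were lower with sh1 than with sh4 (11.2% of all genes). None was higher with sh1 by edgeR or by DESeq2 (7.83% of all genes); at an unadjusted p under 0.05, 2 were. The differences of LGALS3BP, IFITM1, IFITM3 and BST2 (tetherin, which holds virions at the cell surface) were -1.59 (SE 0.12), -2.05 (SE 0.16), -1.42 (SE 0.12) and -1.09 (SE 0.09). Those of IFI35 and DTX3L were -2.19 (SE 0.25) and -1.68 (SE 0.20). BST2 had 164, 177 and 152 CPM with NC, 218, 224 and 235 with sh1 and 522, 416 and 503 with sh4. With scaling by library size alone, which moved the median of all genes by 0.23, 11 of 47 were lower and BST2 was at -0.85.

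The interferon genes themselves were below the filter on low counts in the organoids. IFNB1 had 0 counts in all 9 libraries and IFNL1 had 0 to 2; the other 4 ligands had at most 4 counts in any library. The 6 receptor genes stayed under the size threshold with both labels, apart from IL10RB, which rose with sh4 (1.66). The kinases JAK1 and TYK2 were short of it, at 0.86 and 0.75 and at 0.79 and 0.77, and STAT3 rose with sh4 (1.34). Of 12 sensing adaptors and kinases, 4 rose with both labels: STING1, the adaptor of DNA sensing (0.572 ± 0.289, 9.86 ± 1.83 and 41.9 ± 5.36 CPM, SD, n = 3), TLR3 (0.226, 2.14 and 6.34 CPM on average), DHX58 and IKBKE. Of 8 gamma targets and chemokines, GBP1, GBP2, GBP3 and GBP4, guanylate-binding GTPases, rose with both. GBP1 went from 1 to 5 counts in the NC libraries to 157 to 182 with sh1 and 206 to 273 with sh4. CXCL10 had 1 count in each NC library, 2 to 5 with sh1 and 25 to 38 with sh4. TLR3, GBP1 and CXCL10 were near the floor in the NC libraries and passed the filter through libraries labelled sh1 or sh4. They could therefore be called higher but hardly lower. TNFAIP3, an inhibitor of NF-kappaB, and IRF8 rose with both labels. Without sh1 library 3 the sh1 value of TNFAIP3 was 0.95, without sh1 library 2 that of GBP4 was 0.93, and that of IRF8 lost its call when NC library 1, NC library 3 or sh1 library 1 was left out.

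Markers of other cell types moved strongly in the same libraries. Over the 10 macrophage, microglia and blood markers the summed CPM was 2.35 to 4.75 with NC, 11 to 34.1 with sh1 and 95.3 to 186 with sh4; 8 of the 10 rose with both labels and 10 with sh4, and C1QA and C1QB were at 0 in every NC library. Over the 8 mesenchyme markers it was 2966 to 4382, 20571 to 23024 and 39571 to 48597, with 7 of 8 higher with both labels. The endothelial sums were 138 to 177, 159 to 234 and 462 to 651. CLDN5, ERG and PECAM1 rose with both labels and CDH5 and KDR with sh4, while VWF fell with sh4. Pluripotency markers summed to 873 to 1306 with NC, 108 to 119 with sh1 and 101 to 138 with sh4, and 8 of 8 fell with both labels. Neuron markers summed to 2759 to 3008, 1031 to 1442 and 199 to 787 CPM, and neural progenitor markers to 2927 to 3378, 2614 to 2735 and 1266 to 1674. Among the progenitor markers, FABP7, HES5, PAX6, SOX1 and SOX2 fell with both labels and NES with sh4, while PROM1 rose with sh4. The part of these cell types in the result was not tested.

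**Figure D5:**
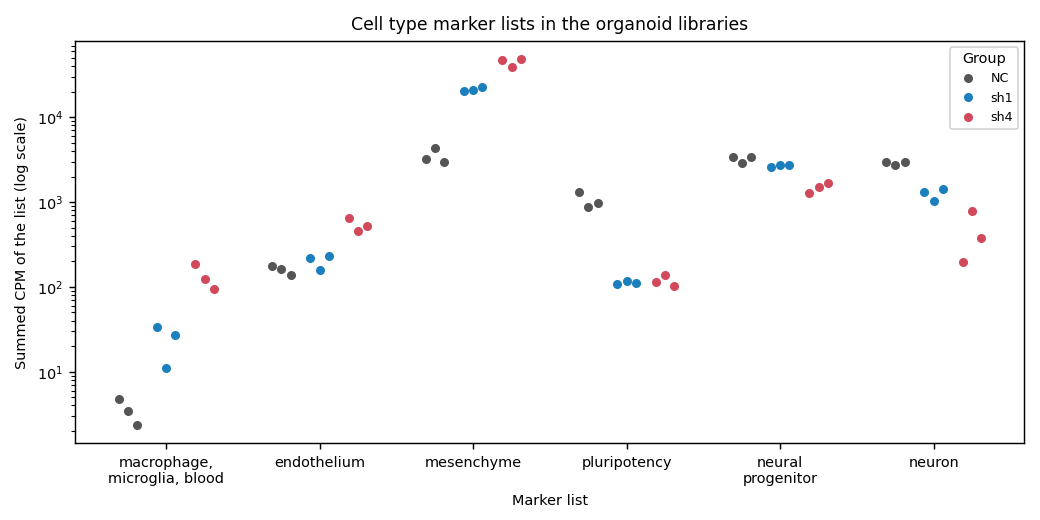
Summed CPM on a log scale of each cell type marker list in the organoid libraries; points are libraries, 3 per group. The macrophage, mesenchyme and endothelial sums are highest with sh4, and the pluripotency, neural progenitor and neuron sums are highest with NC.

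The contrast of the hairpins against NC, averaged over sh1 and sh4, was lower in the NPCs than in the organoids for 36 of the 46 genes in both tables and higher for 2 (20.8% and 13.6% of 10069 genes tested). The test was an interaction term in a fit over the genes found in both tables. These percentages are therefore shares of genes listed in the NPC table and not of all genes. OASL and SAMD9L, below the filter in the organoids, entered it through their NPC counts, and SAMD9L is among the 36. The 2 higher genes were IFITM1 and MX2, named after their values were seen. In the NPCs MX2 rose with sh4 and lay below NC with sh1, so its average describes neither hairpin. IFIH1, the double-stranded RNA sensor, differed by -5.38 (SE 0.25, adjusted p = 3.93e-15), falling in the NPCs and rising in the organoids. IFIT3 and IFIT1 differed by -4.96 (SE 0.24) and -3.47 (SE 0.20), and PARP14 by -2.94 (SE 0.14). LGALS3BP, PARP9 and SP110, which rose in the organoids with both labels, differed by -2.84 (SE 0.12), -3.41 (SE 0.21) and -3.08 (SE 0.19). TRIM25, the ubiquitin ligase of RIGI, differed by -1.54 (SE 0.09) with no value past the size threshold in either system (-0.86 and -0.79 against 0.58 and 0.88). Of the 12 genes that fell with both hairpins in the NPCs, IFIH1, IFIT1, IFIT2, IFIT3, IRF1 and PARP14 rose with both labels in the organoids, and 8 rose with sh4. Of the 15 that fell in the NPCs with sh1 only, 9 rose with both labels and 11 with sh4. Among those 9, OAS1, OAS2 and SAMD9 had counts under 10 in the organoid NC libraries, and XAF1 in part of them. These genes could be called higher there but hardly lower. Among the 12, OASL was not tested in the organoids, and among the 15, SAMD9L was not, so neither could be counted as risen. Over all 47 members tested in the organoids, 23 rose with both labels and 32 with sh4, and no difference from these shares was tested. KDM2A differed by -1.05 (SE 0.08) in the same fit, since it was lower in the NPCs alone, and the systems were processed and deposited as separate tables, so that levels are not compared between them.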

How the data were processed

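RNA-seq counts per gene were analysed for 15 NPC and 9 organoid libraries. The authors' tools include STAR, an aligner, and featureCounts, a read counter, with the build GRCh38.p13, per the submitters' processing notes; not given in the sources used here are their versions and the strand setting. Both deposited tables hold estimated counts: 82.4% of NPC values and 91.0% of organoid values are whole, and all were rounded to whole numbers. Gene IDs were matched to symbols with RefSeq names (RIGI is written DDX58 in the NPC table).

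Each system was fitted over its 3 groups with edgeR 4.0.16 (R 4.3.3, limma 3.58.1; filterByExpr with a minimum count of 10, TMM, quasi-likelihood test). P-values were adjusted by Benjamini-Hochberg over all genes tested; a call needs an adjusted p under 0.05 and a log2 fold change of at least 1. The script was tested on simulated data with 200 changed genes. Alternatives were DESeq2 1.42.0, RLE size factors, library size alone, no filter, fits of only the groups compared, the replicate block and leaving out each library. Replicates differed beyond sampling noise (chi-square over degrees of freedom 2.60 to 32.7 in NPCs and 5.19 to 50.4 in organoids), so none was merged. The members, the pathway and marker lists and the tests were chosen with earlier results of these data known.

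Named in full were the genes called the same way with sh1 and sh4 (up to 12 per system, by the larger adjusted p) and all transcription factors; also pathway genes called with both (up to 12), and the leading 6 between hairpins and 8 between systems. Some pathway genes are not reported here.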

Additional observations from a re-analysis of the deposited data

Results flagged for a closer look

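The hairpin contrast differed between NPCs and organoids, by the interaction test, for KDM2A and for the 8 leading interferon response genes. NPC contrast minus organoid contrast was -2.84 for LGALS3BP, -5.38 for IFIH1, -2.94 for PARP14, -4.96 for IFIT3, -3.47 for IFIT1, -1.54 for TRIM25, -3.41 for PARP9, -3.08 for SP110 and -1.05 for KDM2A, as log2 values. In the 63 groups of 5 NPC libraries examined for a library far from the others there were 0, where chance gives about 1 in 20.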

How the results depend on the processing

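Of 2619 values of single genes other than KDM2A under the alternatives (154 results), 33 in 15 results missed a threshold and 2 reversed: IRF7 in organoids with sh4, at -0.21 by library size alone and -0.066 without sh4 library 1 (-0.066 to 0.166 over the libraries left out). Library size alone moved the median of all genes by -0.14 (NPC sh1), -0.14 (NPC sh4), -0.27 (organoid sh4) and 0.23 (organoid sh1 against sh4). It moved the share of higher calls for NPC sh1 from 34.3% to 23.7%, for organoid sh4 from 56.4% to 43.3% and for organoid sh1 against sh4 from 41.2% to 57.3%. Without the filter and with DESeq2 the NPC sh1 median moved by -0.24 and -0.25. Library size alone put KDM2A at -1.11 for NPC sh4 and -0.27 for organoid sh4 (below 0), 1 member lower for organoid sh4, and 11 lower between organoid labels. The members lower with organoid sh1 were 1 without the filter, with DESeq2 and with the replicate block, and 1 to 2 when a library was left out. Leaving out libraries gave KDM2A -1.06 to -0.98 (NPC sh1, short of the size threshold without NC library 1 or 3), -1.01 to -0.94 (NPC sh4) and -0.022 to 0.050 (organoid sh4, below 0 without NC library 1 or 3 or sh4 library 1 or 3), members higher 0 to 1 (NPC sh1, and organoid sh1 against sh4) and members lower 0 to 1 (organoid sh4). Both-hairpin counts were 11 to 12 lower in NPCs and 19 to 24 higher in organoids. Same-numbered libraries correlated at -0.10 to 0.39 in NPCs (9 of 15 over 0.1) and -0.16 to 0.04 in organoids (0 of 9), and differently numbered ones at -0.48 to 0.38 and -0.18 to 0.19. Not every same-numbered pair was over 0.1, and the samples were treated as unpaired; with the replicate block the counts for both hairpins were 12 and 23 as before. Counts under 10 in organoid controls limit OAS1, OAS2, SAMD9 and IFI44, and in part of the control libraries RSAD2 and XAF1.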
